A study of Mus musculus with 20 samples.

Results

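Oxidative phosphorylation subunits are the nuclear-encoded proteins of the respiratory chain and of the mitochondrial ATP synthase, and their transcripts were followed here through mouse embryonic development. Members were chosen by symbol alone. They were the genes with a probe set of a single gene symbol that begins with Nduf, Uqcr, Cox4 to Cox8 or Atp5, or that is Sdha, Sdhb, Sdhc or Sdhd. Of the 18193 genes measured, 90 met this rule, read by 179 probe sets. Enough signal for testing was found in 88 of them. Cox7b2 and Ndufb4 stayed out, with signals of 0.752 to 37.9 and of 2.32 to 72.6 over the 20 arrays. The symbol rule also takes in 8 Ndufaf genes, whose products help to assemble complex I without staying in it, and these are described apart from the subunits.

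The samples were whole wild-type C57BL/6 embryos of mixed sex, kept specific pathogen free and collected without the amnion. Stages are embryonic days. Daily stages up to E10.5 had 3 samples apiece, and stages at intervals of 2 days from E12.5 to E18.5 had 2. RNA of several embryos was pooled into a sample, which was read on 1 array (Affymetrix Mouse Genome 430 2.0), so p-values measure the spread between pools. The stages carry no genotype or treatment difference, and the comparisons ask how transcript levels differ with age. RNA came from whole embryos, so a larger share of cells rich in a transcript and more of it per cell cannot be told apart.

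Oxidative phosphorylation uses 5 complexes of the inner mitochondrial membrane. Complex I (NADH dehydrogenase, Nduf genes) and complex II (succinate dehydrogenase, Sdh genes) pass electrons to ubiquinone, complex III (cytochrome bc1, Uqcr genes) passes them to cytochrome c, and complex IV (cytochrome c oxidase, Cox genes) passes them to oxygen. The proton gradient built up on the way drives complex V (ATP synthase, Atp5 genes). A few subunits of complexes I, III, IV and V are encoded in mitochondrial DNA and are not members. Several complex IV subunits exist as a broadly expressed form and a tissue-restricted form. Cox6a2, Cox7a1 and Cox8b are the heart and skeletal muscle forms, and Cox7a1 and Cox8b are also abundant in brown fat.

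The arrays fell into a pair of sets, E7.5 to E10.5 and E12.5 to E18.5. The median MAS5 signal, Affymetrix's background-corrected brightness of a probe set, was 67.2 to 91.1 on the 12 earlier arrays and 156 to 178 on the 8 later ones. A control probe set for a spiked bacterial transcript read 50.8 to 119 and 1812 to 2571. Between E10.5 and E12.5, array set and stage therefore cannot be told apart, and the main comparisons run inside a set. Replicate arrays correlated at 0.977 to 0.991 over all genes. Changes below are differences of log2(signal + 25.9), later minus earlier, ± the standard error of 1 limma model over all 20 arrays. They understate the change of dim genes. "Rose" and "fell" are used for an adjusted p below 0.05 (limma, Benjamini-Hochberg over 14044 genes tested). Over the 8 stages, 87 of the 88 members tested differed by the moderated F test, as did 91% of all genes tested. Cox4i2 did not pass (signals of 18.1 to 101).

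From E12.5 to E18.5 transcripts for all 5 complexes rose. Of 88 members tested, 73 rose and 2 fell, where 24% of all genes tested were higher and 29.2% lower. The median change was 0.70 for the members and -0.09 for all genes tested. Most rises were moderate, and 11 members rose at least 2-fold, beside 15.2% of all genes tested. Both E18.5 arrays lay above both E12.5 arrays for 79 of the 88 members, which held for 37.1% of genes tested. The 2 that fell were Ndufaf2 and Cox6b2, and 1 was left without E12.5 replicate 2 or without either E18.5 array. Leaving out each array in turn left 68 to 73 members higher, and scaling the arrays by quantiles or by the 75th percentile left 72 and 73.

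**Figure D1:**
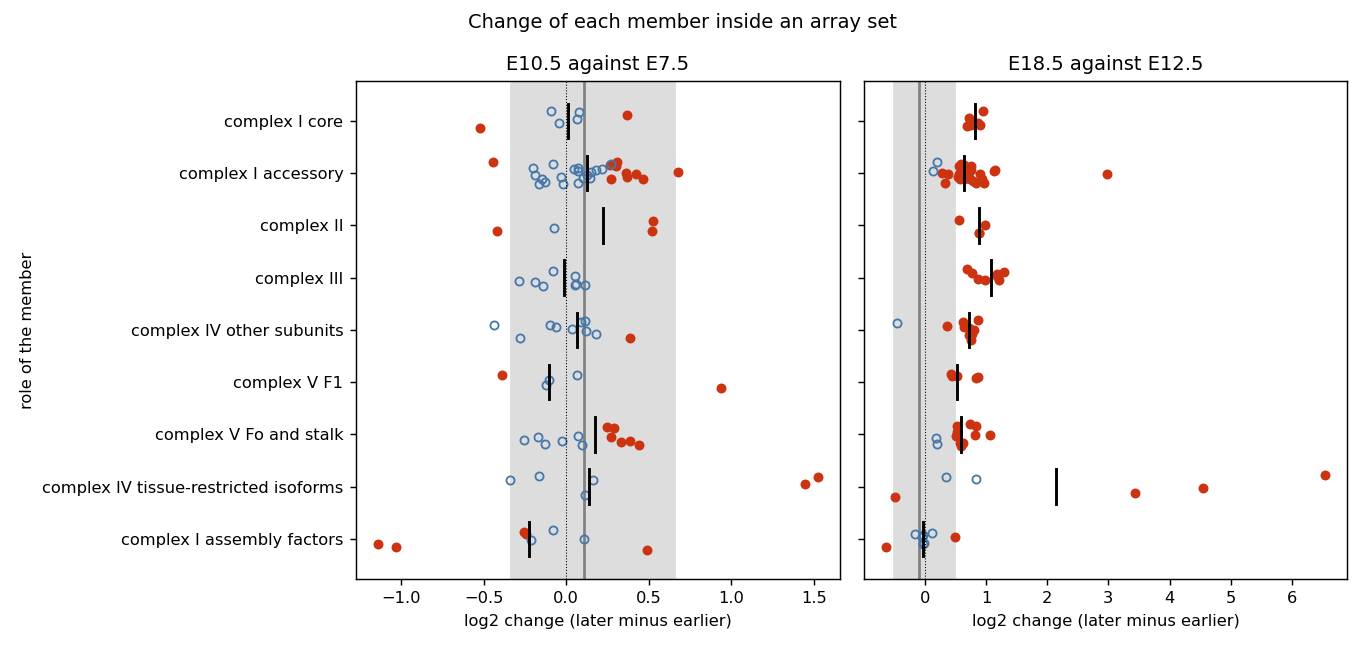
Change of each member tested from E7.5 to E10.5 (left) and from E12.5 to E18.5 (right) in log2 units (later minus earlier), 1 point per gene in rows by role; filled points passed at an adjusted p below 0.05. Short black bars are medians of a row, the grey line is the median of all genes tested and the grey band its interquartile range. In the right panel the tissue-restricted isoforms have a median of 2.14 and the other rows of complexes I to V medians of 0.52 to 1.08; the single points Cox6b2, of the restricted row, and Cox7c lie below 0, and the 8 complex I assembly factors have a median of -0.03 (0.03 under quantile normalization).

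Complex I contributed the most members. All 6 core subunits measured, which hold the flavin, the iron-sulfur clusters and the quinone site, rose by a median of 0.81. Ndufs1, the large iron-sulfur subunit, read 2709 and 2751 at E12.5, 2550 and 2852 at E14.5, 3025 and 3120 at E16.5, and 4811 and 4095 at E18.5. Both E18.5 arrays were above the 6 arrays before them, and the change from E12.5 was 0.70 ± 0.13 (adjusted p = 0.00022). Ndufs7, which carries the last iron-sulfur cluster before ubiquinone, went from 2498 and 2452 to 4719 and 4612, a rise of 0.91 ± 0.12 (adjusted p = 4.4e-06).

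Of 29 accessory subunits of complex I, which surround the core and are needed for its assembly and stability, 27 rose, with a median of 0.64. The 29 were grouped by name and include Ndufa4, now counted as a complex IV subunit, and its paralog Ndufa4l2. Without them 25 of 27 rose, again with a median of 0.64. Ndufb10 rose from 2684 and 2720 to 5744 and 6260 (change of 1.14, adjusted p = 2.2e-09), and Ndufa6 from 2113 and 2327 to 5040 and 4758 (1.13, adjusted p = 2.7e-07). In both, the E18.5 arrays stood clear of the E12.5 arrays. Ndufa7 and Ndufb1 did not pass. Ndufb1 read 277 and 340 at E12.5 and 360 and 318 at E18.5, so its stages overlapped.

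The 4 subunits of complex II, which also belongs to the citric acid cycle, all rose, with a median of 0.88. Sdha, the flavoprotein that oxidises succinate, read 4365 and 4682 at E12.5, 4659 and 4779 at E14.5, 5444 and 5649 at E16.5, and 8476 and 8196 at E18.5. It rose by 0.88 ± 0.09 (adjusted p = 5.2e-08), with overlap between E12.5 and E14.5 and none between the later stages. Sdhb, the iron-sulfur subunit, rose by 0.88 and Sdhd, a membrane anchor, by 0.98. Sdhc, the other anchor, rose by 0.56, although its second probe set, at a lower signal, gave -0.02.

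Complex III had the largest median rise of the roles other than the tissue-restricted isoforms, 1.08 over 8 of 8 subunits. No test was made between complexes. Uqcrfs1, the Rieske iron-sulfur protein, read 4161 and 3773 at E12.5, 4266 and 4424 at E14.5, 5602 and 5019 at E16.5, and 9339 and 9086 at E18.5. Its arrays separated E16.5 from E14.5 and E18.5 from E16.5, and it rose by 1.21 ± 0.09 (adjusted p = 1.3e-09). The small subunits Uqcr11 (1.29), Uqcrq (1.19) and Uqcr10 (1.18) also passed 2-fold. Uqcrc2, a core protein, rose by 0.99.

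In complex IV, 9 of the 10 genes that are not tissue-restricted rose, with a median of 0.72. The 10 were grouped by name and include Cox7a2l (0.36). Cox5a, which lies on the matrix side of the enzyme, read 11743 and 11746 at E12.5, 10655 and 11998 at E14.5, 11995 and 15651 at E16.5, and 19350 and 19319 at E18.5. The E18.5 arrays were the highest of this set, and the rise was 0.72 ± 0.18 (adjusted p = 0.0026). Cox7c was the exception. Its probe set read 550 and 591 at E12.5 and 412 and 405 at E18.5 (change of -0.46, adjusted p = 0.11). It passed by limma with the 8 arrays of this set fitted alone (adjusted p = 0.0097) and with the 2 stages alone (0.0041). So it did with the mean of all probe sets (-0.65, 0.022) and, narrowly, under quantile normalization (-0.55, 0.05 after rounding). Under the other alternatives it did not pass. Both Cox7c probe sets were dim, with E12.5 means of 571 and 297, where the probe set of Cox8a had 3365. Whether they read the main Cox7c transcript was not tested.

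In complex V, all 5 subunits of the catalytic F1 head rose, with a median of 0.52. Atp5b, the catalytic beta subunit, read 16190 and 15398 at E12.5, 14178 and 17870 at E14.5, 15217 and 22282 at E16.5, and 20929 and 21763 at E18.5. Here the E16.5 arrays spanned the E18.5 values. The rise of 0.43 ± 0.14 (adjusted p = 0.014) did not pass without E12.5 replicate 2 (adjusted p = 0.079) or without E18.5 replicate 2 (adjusted p = 0.075). Of the 12 membrane Fo and stalk subunits 10 rose, with a median of 0.59. Atp5md, a small membrane subunit, rose most, from 3881 and 3974 to 7584 and 8993 (1.07 ± 0.18, adjusted p = 4.5e-05). Atp5g2 (0.20) and Atp5j (0.19) did not pass.

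The rise came late. Of the 73 members that rose, 67 made their largest step between E16.5 and E18.5, and the median share of the whole change that fell in this step was 61.4%. The steps were counted from stage means, without a test, and the same count was not made for all genes that rose. The comparison that chose the 73 includes the E12.5 and E18.5 arrays, which favours the first and last steps. Some margins were small, as for Atp5b, with 0.213 in the last step and 0.210 in the one before. In E14.5 against E12.5, 2 members rose, Cox6a2 and Cox8b (6.54% of genes tested), and 0 fell by limma (3.88%; 1 at an unadjusted p below 0.05). Without E12.5 replicate 1 the 2 became 1. In the next step, E16.5 against E14.5, 8 rose (6.04%) and 0 fell by limma (4.23%; 0 also at an unadjusted p below 0.05). They were Cox6a2, Cox7a1, Cox8b, Ndufa4l2, Ndufa9, Ndufb9, Uqcrc2 and Uqcrfs1. Leaving out 1 array of either stage moved the 8 to 4 without E14.5 replicate 1, and to 5 without E14.5 replicate 2 or either E16.5 array.

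In the last step, E18.5 against E16.5, 49 of 88 members rose, where 7.33% of genes tested were higher. By limma 0 members fell (8.5% of genes tested), with 2 lower at an unadjusted p below 0.05. This count fell to 30 without E16.5 replicate 1, 32 without E18.5 replicate 1 and 29 without E18.5 replicate 2. Uqcrfs1 rose by 0.79 ± 0.09 (adjusted p = 4.5e-06), Sdha by 0.59 ± 0.09 (adjusted p = 7.2e-05) and Ndufs1 by 0.53 ± 0.13 (adjusted p = 0.01). Cox5a (0.50 ± 0.18, adjusted p = 0.075) and Atp5b (0.21 ± 0.14, adjusted p = 0.37) did not pass in this step. In complex III, 7 of 8 subunits rose in this step, and 6 did without any 1 of the 4 arrays of these stages. In complex I, 24 of 35 rose, with 15 without E16.5 replicate 1, 16 without E18.5 replicate 1 and 17 without either of the others. In complex II, 4 of 4 rose in this step. In complex IV, 5 of the 10 that are not tissue-restricted and 3 of the 6 restricted isoforms rose. In complex V, 2 of 5 F1 and 4 of 12 Fo and stalk subunits did. Apart from that of the restricted isoforms, these counts also moved when a single array was left out.

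**Figure D2:**
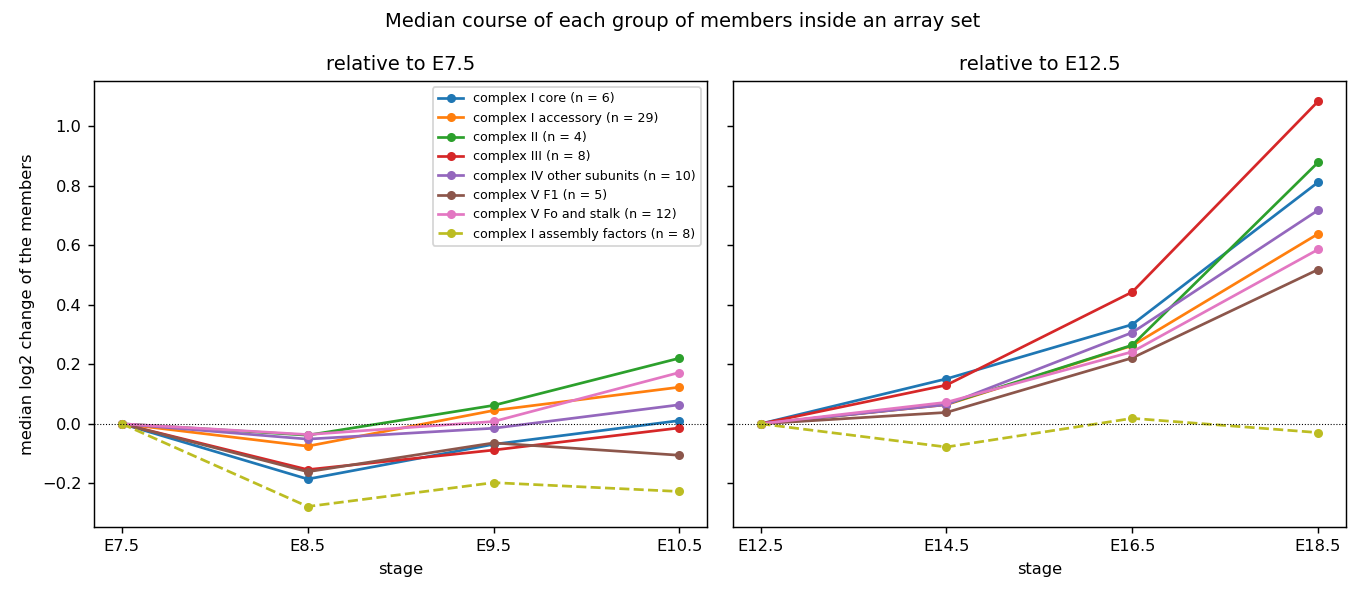
Median log2 change of each group of members relative to E7.5 (left, earlier array set) and relative to E12.5 (right, later array set), by stage; lines join medians over n genes of a role, and tissue-restricted isoforms are left out. The right panel shows small medians at E14.5 and the steepest climb between E16.5 and E18.5, from which the dashed line of the 8 assembly factors departs, ending at -0.03 (0.03 under quantile normalization).

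The signal level of the members bears on these counts, because 71 of the 88 lay in the brightest decile of genes tested. That decile held 1405 genes, members included. From E12.5 to E18.5 its other genes had a median of -0.25, with 15.4% higher and 46.7% lower. Its members had a median of 0.72, and 68 of the 71 rose. In E18.5 against E16.5, 46 of these 71 members rose and 4.72% of the other bright genes did.

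Upstream sequence was read for the members because so many moved together. RefSeq (GRCm38.p6) gave a start site for 74 of the 90, with 79 promoter entries, and the 250 bases before each start were searched on both strands. The ETS motif CCGGAAG, bound by GABPA among others, stood in 14 of the 79 member windows (17.7%) and in 6.91% of all 32851 windows. The NRF1 motif, GCGC on either side of an A and any base, stood in 13 of 79 and 3.74%. Member windows were also richer in G and C, with a median of 57.6% against 52.4%, and over protein-coding genes alone the motif shares were 8.98% and 5.18% and the median 55.6%. The assembly factors, which did not share the rise, held ETS in 2 and NRF1 in 1 of 7 windows. No test was made, and a match is a string of letters, not a bound site.

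The shares of other motifs were nearer to those of all windows, less clearly so for AAGGTCA. AAGATGGC, the YY1 motif, stood in 1.27% of member windows and 1.56% of all. AAGGTCA, bound by estrogen-related receptors, stood in 6.33% and 4.08%. The TATA motif TATAAA stood in 10.1% and 12.4%. Over protein-coding genes alone the shares of these motifs were 1.5%, 3.59% and 11.6%. For subunits without assembly factors and tissue-restricted isoforms, AAGGTCA stood in 7.35%, so its distance depends on the windows compared.

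The E-box CANCTG stood in 41.8% and 44.8%. The MEF2 motif was in 0 of the 79 member windows and 2.92% of all. An ETS and an NRF1 match in a single window were found for Cox6a1, Atp5h and Sdhd. These 3 are printed 5′ to 3′ on the gene's strand, with both motifs in capitals. An ETS match on the other strand reads CTTCCGG. The windows of the muscle-type genes Cox7a1 and Cox8b, further on, are printed for contrast.

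Cox6a1 (chr5:115348959-115349208, minus strand): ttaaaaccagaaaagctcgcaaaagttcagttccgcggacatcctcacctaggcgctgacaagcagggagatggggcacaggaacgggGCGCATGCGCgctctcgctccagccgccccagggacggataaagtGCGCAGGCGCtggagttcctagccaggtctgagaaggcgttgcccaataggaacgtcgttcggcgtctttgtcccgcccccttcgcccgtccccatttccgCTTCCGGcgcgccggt

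Atp5h (chr11:115419920-115420169, minus strand): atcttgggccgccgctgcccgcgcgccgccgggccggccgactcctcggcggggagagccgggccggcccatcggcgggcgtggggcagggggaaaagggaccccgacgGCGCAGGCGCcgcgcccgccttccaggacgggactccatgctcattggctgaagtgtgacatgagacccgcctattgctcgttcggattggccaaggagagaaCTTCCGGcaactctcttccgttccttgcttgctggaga

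Sdhd (chr9:50603850-50604099, minus strand): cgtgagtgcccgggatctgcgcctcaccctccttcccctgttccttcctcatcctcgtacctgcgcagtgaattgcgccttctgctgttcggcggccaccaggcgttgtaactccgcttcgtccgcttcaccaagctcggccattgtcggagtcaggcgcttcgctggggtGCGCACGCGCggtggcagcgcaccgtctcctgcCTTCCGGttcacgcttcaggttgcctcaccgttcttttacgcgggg

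In the Cox6a1 window the NRF1 letters began 162 and 117 bases before the start and the ETS letters 16 before it. Atp5h held them at 141 and 38 bases, and Sdhd at 79 and 46. All 3 genes rose from E12.5 to E18.5, as did 73 of the 88 members tested, and members with and without these letters were not compared. Cox6a1, the common form of a complex IV subunit, read 13030 and 14013 at E12.5 and 21452 and 20127 at E18.5 (0.62 ± 0.14, adjusted p = 0.00086). Sdhd went from 2482 and 2701 to 4964 and 5285 (0.98 ± 0.10, adjusted p = 1.2e-07). Atp5h, a stalk subunit, rose by 0.52 (adjusted p = 0.0028).

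The largest rises belonged to 3 tissue-restricted isoforms of complex IV. Cox8b read 29.0 and 75.1 at E12.5, 197 and 213 at E14.5, 909 and 870 at E16.5, and 6186 and 7727 at E18.5. No neighbouring stages overlapped, and the change was 6.54 ± 0.35 (adjusted p = 9.8e-12). Its E12.5 values lie under the array median and near the added constant, and with a constant 4 times smaller or larger the change was 7.01 or 5.51. On the 12 earlier arrays it read 1.85 to 31.9, under the median of each array.

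Cox7a1 stayed at 96.8 to 120 on the 4 arrays of E12.5 and E14.5, then read 445 and 583 at E16.5 and 2929 and 3151 at E18.5. It rose by 4.55 ± 0.21 (adjusted p = 1.9e-12), of which 2.52 ± 0.21 came in the last step. Its signals at E7.5 to E10.5 were 107 to 189, and its change of -0.34 from E7.5 to E10.5 did not pass, although it did under quantile normalization (-0.59) and scaling by the 75th percentile (-0.52). Cox6a2 began earlier. It read 60.7, 77.2 and 60.2 at E7.5, 129, 85.7 and 107 at E8.5, 194, 196 and 202 at E9.5, and 199, 208 and 270 at E10.5. On the later arrays it read 364 and 348, then 869 and 841, then 1796 and 1760, then 4354 and 3866, with no overlap between these stages. It rose by 1.45 ± 0.14 in the earlier set (adjusted p = 2.1e-08) and by 3.43 ± 0.17 in the later one (adjusted p = 3.9e-12).

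The 2 windows below are those of Cox7a1 and Cox8b. Neither holds an ETS or NRF1 match, and that of Cox8b holds an E-box 19 bases before its start, in capitals.

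Cox7a1 (chr7:30183921-30184170, plus strand): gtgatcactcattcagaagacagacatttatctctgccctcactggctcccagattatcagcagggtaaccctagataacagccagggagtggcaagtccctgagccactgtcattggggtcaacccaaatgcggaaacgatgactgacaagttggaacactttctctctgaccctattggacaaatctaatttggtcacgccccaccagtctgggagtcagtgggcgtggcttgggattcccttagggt

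Cox8b (chr7:140900447-140900696, minus strand): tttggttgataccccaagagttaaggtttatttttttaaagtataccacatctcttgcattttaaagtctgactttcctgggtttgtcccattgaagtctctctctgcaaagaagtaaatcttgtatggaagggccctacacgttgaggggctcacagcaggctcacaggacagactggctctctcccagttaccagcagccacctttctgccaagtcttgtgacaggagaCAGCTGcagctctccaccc

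Each restricted form was set against its common partner by fitting the difference of the pair on each array beside all genes (14053 rows), which tests whether their changes differ and not which is more abundant. From E12.5 to E18.5 the change of Cox8b exceeded that of Cox8a by 5.80 ± 0.31 (adjusted p = 1.4e-11). Cox7a1 exceeded Cox7a2 by 3.77 ± 0.18 (adjusted p = 3.3e-12) and Cox6a2 exceeded Cox6a1 by 2.81 ± 0.16 (adjusted p = 2e-11). Cox8b and Cox7a1 lay under the array median at E12.5, so the size of their differences depends on the added constant. With a constant 4 times smaller or larger, that of Cox8b was 6.26 or 4.78 and that of Cox7a1 3.99 or 3.14. The common forms rose too, Cox8a by 0.75, Cox7a2 by 0.78 and Cox6a1 by 0.62. In no array of E18.5 did these pair differences overlap those of E12.5.

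**Figure D3:**
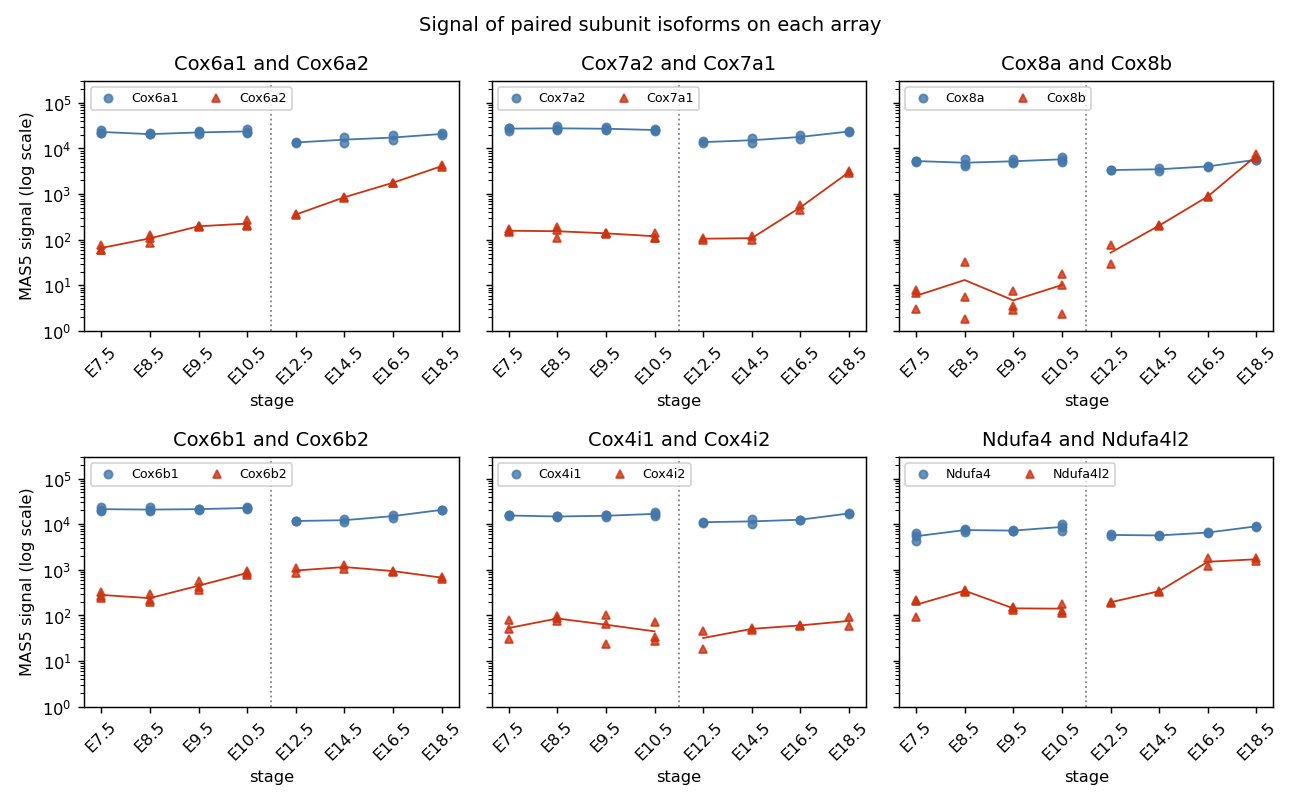
MAS5 signal (log axis) of 6 pairs of isoforms on each of the 20 arrays by stage; circles are the common form, triangles the restricted form or paralog, lines join stage means, and the dotted line parts the array sets. Signals of different probe sets are not on a common scale, so courses and not heights are to be compared. Cox6a2, Cox7a1 and Cox8b climb to E18.5 in steps that their partners do not show, and Cox6b2 declines after E14.5.

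Cox6b2, known as the testis form of its subunit, went the other way. It read 857 and 1071 at E12.5, 1055 and 1245 at E14.5, 960 and 916 at E16.5, and 636 and 712 at E18.5. The fall of 0.49 on the log2 scale (SE 0.20, adjusted p = 0.04) was at the edge of the test. The adjusted p was 0.28 without E12.5 replicate 2, 0.19 without E18.5 replicate 1, 0.068 without E18.5 replicate 2 and 0.075 with arrays scaled by the 75th percentile. Against Cox6b1, which rose by 0.81, the difference was -1.30 ± 0.16 (adjusted p = 1.2e-06). Earlier, Cox6b2 had risen from 273, 240 and 332 at E7.5 to 862, 780 and 919 at E10.5 (1.52 ± 0.16, adjusted p = 7.3e-08), and its difference from Cox6b1 over these stages was 1.43 ± 0.13 (adjusted p = 1.1e-08). The summed signal of 6 testis and germ cell markers was 76.6 to 136 over the 8 later arrays and 53.6 to 550 before that, highest at E7.5. Of the 6, only Ddx4 and Ldhc had enough signal for testing. The later sums lay under the median signal of a single probe set on those arrays (156 to 178).

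Cox4i2, a lung form, did not pass (0.84 ± 0.42, adjusted p = 0.1). Its change was 0.48 without E12.5 replicate 1 (adjusted p = 0.48) and 1.19 without E12.5 replicate 2 (adjusted p = 0.069). It passed with only 1 array set in the fit (adjusted p = 0.032) and with centring on the brightest decile of other genes (1.03, adjusted p = 0.046). With the 2 stages alone it passed narrowly (adjusted p = 0.05 after rounding). Cox8c, another testis form, did not pass either (0.35, adjusted p = 0.42). Nor did their differences from Cox4i1 (0.20 ± 0.32) and Cox8a (-0.40 ± 0.40). The 3 genes Atp5g1, Atp5g2 and Atp5g3 encode the same mature c-ring subunit of ATP synthase behind different import sequences. Atp5g1 read 2951 and 3128 at E12.5 and 5604 and 5224 at E18.5, a rise of 0.83, although the mean over its probe sets gave 0.18 (adjusted p = 0.36). Atp5g3 rose by 0.52 (adjusted p = 0.011), which did not pass without E12.5 replicate 1 (0.09) or E18.5 replicate 1 (0.057). Atp5g2 read 6014 and 6293, then 7302 and 6887 (0.20 ± 0.10, adjusted p = 0.091). Atp5g2 lagged Atp5g3 by 0.32 (SE 0.11, adjusted p = 0.022), which did not pass without E12.5 replicate 1 or either E18.5 array (adjusted p of 0.13, 0.061 and 0.11).

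Ndufa4l2, a paralog of Ndufa4 that is known to be induced by hypoxia, moved at other times than the subunits. It read 206, 91.2 and 217 at E7.5 and 352, 364 and 332 at E8.5, then 147, 130 and 153 at E9.5. It rose by 1.00 in the first step (adjusted p = 0.0011) and fell by 1.15 in the second (adjusted p = 0.00087). In the later set it read 190 and 199, 331 and 350, 1207 and 1793, and 1565 and 1843, so that the E16.5 and E18.5 arrays overlapped. Its rise of 2.97 ± 0.27 (adjusted p = 2e-08) held 2.03 between E14.5 and E16.5. The difference from Ndufa4 was 2.34 ± 0.30 from E12.5 to E18.5 (adjusted p = 1.7e-06) and -0.87 ± 0.24 from E7.5 to E10.5 (adjusted p = 0.0045). Without E7.5 replicate 1 the second was -0.56 (adjusted p = 0.042). Of 11 other hypoxia genes tested, 6 rose from E12.5 to E18.5 and 1 fell, with a median of 0.74. From E7.5 to E10.5, 1 rose and 8 fell (median -0.49), and 8 and 9 were lower under quantile normalization and scaling by the 75th percentile.

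Summed markers of muscle and of brown fat were higher at E18.5 than at E12.5, as were the restricted isoforms Cox6a2, Cox7a1 and Cox8b. The courses of these isoforms were not the same. From E12.5 to E14.5 both sums went up, Cox8b changed by 1.63 and Cox6a2 by 1.20, and Cox7a1 by 0.03. Within the brown fat sum Fabp4 had means of 182 and 910 at these stages. The summed signal of 14 heart and skeletal muscle markers was 26126 to 26422 at E12.5, 53280 to 60515 at E14.5, 97632 to 113007 at E16.5 and 177284 to 188711 at E18.5. From E12.5 to E18.5, 12 of them rose and 2 fell, the atrial genes Myl7 and Nppa. The summed signal of 6 brown fat markers was 316 to 368, 1229 to 1274, 10171 to 12157 and 55471 to 57097 at these stages, and all 6 rose. Ucp1 and Elovl3 had stage means above the array median only at E18.5. A gene was tested if at least 2 arrays lay above that median, so the filter favours counting these genes as rises. Ucp1, the uncoupling protein that defines brown fat, had mean signals of 8.18, 12.0 and 27.7 up to E16.5 and 9744 at E18.5. Summed erythroid markers went from 49189 to 56466 at E12.5 to 7847 to 8592 at E18.5. The globin genes Hba-x and Hbb-bh1 were the largest parts of the E12.5 sum, with means going from 22813 and 17732 to 70.4 and 36.3. Other erythroid markers first went up from E12.5 and were lower again at E18.5. Alas2 had stage means of 2694, 5518, 7814 and 3014, Slc4a1 of 6688, 9304, 10089 and 3381, and Hemgn of 2883, 7331, 5788 and 1697. Muscle markers in the earlier set went from 1765 to 1880 at E7.5 to 39249 to 43417 at E8.5, a step in which Cox6a2 rose (0.53 ± 0.14, adjusted p = 0.0048) and Cox7a1 (-0.05 ± 0.18) and Cox8b (0.22 ± 0.28) did not pass. Visceral endoderm markers, several of which fetal liver also makes, summed to 31492 to 32976 at E12.5 and 103671 to 106474 at E18.5, and all 8 rose. The part of these tissues in the rise of the members was not tested.

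The 8 complex I assembly factors did not share the late rise. From E12.5 to E18.5, Ndufaf1 rose by 0.50 (adjusted p = 0.003), Ndufaf2 fell by 0.64 (adjusted p = 0.00011), and the other 6 lay between -0.16 and 0.12. Their median of -0.03 was 0.03 and 0.01 under quantile normalization and scaling by the 75th percentile, with 1 higher and 1 lower each time. Ndufaf1, a chaperone of the membrane arm, read 945 and 931 at E12.5 and 1275 and 1406 at E18.5. Ndufaf2 read 993 and 1092, 831 and 793, 804 and 882, and 700 and 621 over the 4 stages. Its E18.5 arrays were the lowest.

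From E7.5 to E10.5, 4 of 8 fell and 1, Ndufaf5, rose, beside 23.8% of all genes tested lower and 34.3% higher. With quantile normalization 3 fell, with scaling by the 75th percentile 6, and with centring on the brightest decile of other genes 2. Ndufaf4 read 4942, 3764 and 4014 at E7.5, 3518, 3361 and 3442 at E8.5, 2729, 2800 and 3172 at E9.5, and 2108, 2128 and 1912 at E10.5. No stages overlapped, and it fell by 1.03 (SE 0.10, adjusted p = 1.2e-08). Ndufaf6 went from 1540, 1229 and 1514 to 661, 572 and 664, a fall of 1.14 (SE 0.15, adjusted p = 1.8e-06). Ndufaf2 fell by 0.25, which did not pass without E7.5 replicate 3 (adjusted p = 0.13) or without E10.5 replicate 1, 2 or 3 (adjusted p of 0.066, 0.075 and 0.05), under quantile normalization (0.097) or with centring on the brightest decile (0.31). Ndufaf7 fell by 0.25, which did not pass without replicate 1 or 3 of E7.5 (adjusted p of 0.081 and 0.16) or of E10.5 (0.19 and 0.088). It also did not pass without a filter (0.052), with the 2 stages alone (0.1), with 1 array set in the fit (0.075) or with that centring (0.32).

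Over E7.5 to E10.5 members changed in both directions. Of 88 members 23 rose and 8 fell, beside 34.3% and 23.8% of all genes tested, and the medians were 0.07 and 0.11. Without the assembly factors, 22 of 80 rose and 4 fell. The balance depends on how the arrays are scaled. With quantile normalization 44 were higher and 10 lower, and with scaling by the 75th percentile 9 were higher and 29 lower. The median of all genes was 0.01 and -0.06 under these scalings and that of the members 0.18 and -0.13.

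Summed visceral endoderm markers went from 103419 to 114064 at E7.5 to 8960 to 10471 at E10.5, trophoblast and decidua markers from 6648 to 8233 to 276 to 326, and erythroid markers from 10094 to 15029 to 87356 to 119314. Their part in the members' changes over these stages was not tested.

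Some members changed further than that. Atp5e, the epsilon subunit of F1, read 3769, 3492 and 3843 at E7.5 and 7301, 6816 and 7178 at E10.5 (0.94 ± 0.09, adjusted p = 2e-08), with no overlap. Ndufa4, named for complex I and now counted as a complex IV subunit, rose by 0.68 and Sdhb by 0.52. Ndufs7 fell by 0.52, from 6824, 5148 and 5569 to 3881, 3865 and 4364, and Sdhd fell by 0.42, from 6842, 6088 and 6400 to 5252, 4717 and 4474. Within complex II, then, Sdhb and Sdhc rose and Sdhd fell. Of the 8 complex III subunits 0 passed the limma test, with 2 at an unadjusted p below 0.05. Under quantile normalization 4 of them were higher and 1 lower, and with scaling by the 75th percentile 3 were lower.

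In E8.5 against E7.5, 7 rose and 18 fell (21.6% and 16.4% of genes tested), a fall count that was 11, 10 and 11 without E7.5 replicate 1, E8.5 replicate 2 and E8.5 replicate 3. In E9.5 against E8.5, 5 rose and 2 fell (9.55% and 6.89%), with 8 higher without E8.5 replicate 1 and 1 lower without replicate 2 or 3 of E8.5 or of E9.5. In E10.5 against E9.5, 6 rose and 3 fell (12% and 6.84%), with 2 higher without E9.5 replicate 3. The 3 that fell were the assembly factors Ndufaf2, Ndufaf4 and Ndufaf6.

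Across the change of array set, E12.5 against E10.5, 71 members were lower and 3 higher, beside 21% and 26.5% of all genes tested, with medians of -0.56 and 0.12. Bright genes as a whole read lower here. In the brightest decile the other genes had a median of -0.45 with 64.8% lower, and the 71 members in it had -0.65 with 67 lower. Centring each array on the bright genes that are not members left 40 lower and 8 higher. The 3 that were higher were Cox6a2, Cox7c and Cox8b. Array set and stage cannot be told apart in this step.

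Changes of 2-fold or more were fewer. In E10.5 against E7.5, 2 members rose that far (16% of genes tested) and 2 fell (7.49%). In single steps, E8.5 against E7.5 had 0 higher (6.27%) and 0 lower (4.93%) by limma at this size, although 7 and 23 were higher and lower at an unadjusted p below 0.05 and any size. In E9.5 against E8.5, 0 were higher (2.49%) and 1, Ndufa4l2, lower (1.68%). In E10.5 against E9.5, 0 were higher (3.15%) and 0 lower (0.513%). In E12.5 against E10.5, 2 were higher (10.6%) and 7 lower (2.02%). Later, 2 were higher in E14.5 against E12.5 (3.28%), 4 in E16.5 against E14.5 (3.6%) and 3 in E18.5 against E16.5 (3.52%). By limma 0 fell that far in these steps (0.37%, 0.178% and 0.776%) or in E18.5 against E12.5 (6.44%).

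**Figure D4:**
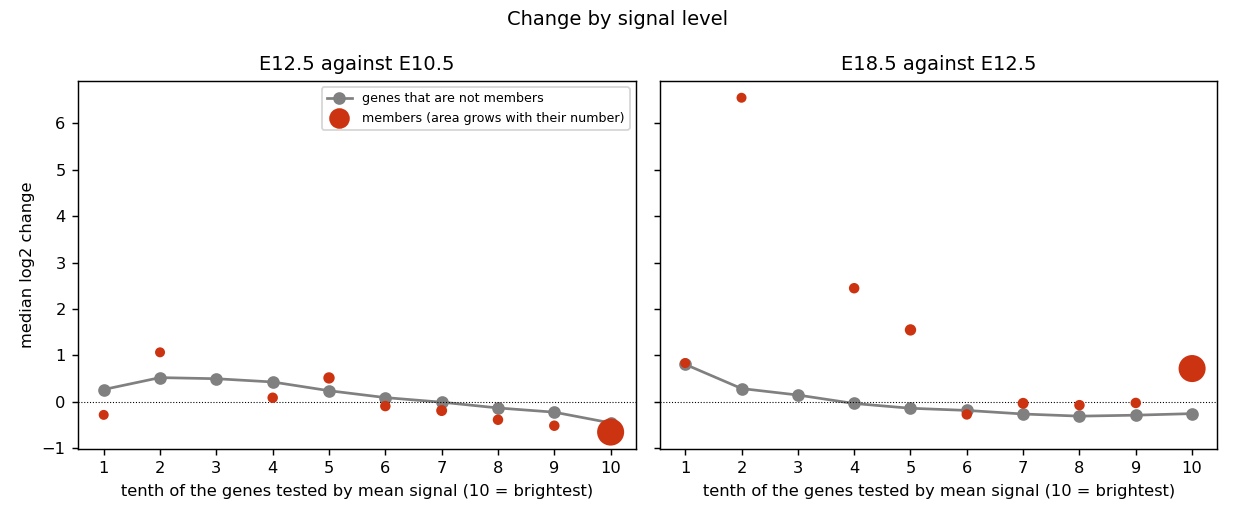
Median log2 change in each decile of the genes tested by mean signal, for E12.5 against E10.5 (left) and E18.5 against E12.5 (right); grey points are genes that are not members, red points members, with area growing with their number. In the brightest decile, which holds 71 members, members and other genes both lie below 0 on the left (-0.65 and -0.45), and on the right they part (0.72 and -0.25).

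Other mitochondrial genes were counted from lists written by function. Of 19 citric acid cycle and pyruvate dehydrogenase genes tested, 18 rose from E12.5 to E18.5 and 1, Pdk3, fell, with a median of 1.02. Pdk4, a kinase that inhibits pyruvate dehydrogenase, rose from a mean signal of 63.0, under the array median, to 817. Idh3a, a subunit of the NAD-dependent isocitrate dehydrogenase, rose by 1.75 ± 0.09 and Sucla2, of succinyl-CoA ligase, by 1.51 ± 0.08. In the last step 15 of the 19 rose. Of 13 genes for cytochrome c, carriers and uncouplers 11 rose (median 0.75). Ucp1 and the creatine kinases Ckmt2 and Ckmt1 rose from mean signals of 8.18, 19.1 and 70.1 to 9744, 4485 and 2136. Their E12.5 signals were under the array median, so the size of these changes depends on the added constant and is not given. The mean of Ucp1 was above that median only at E18.5, so the filter favours its count among the 11. Cycs, cytochrome c itself, rose by 0.94 and Cyc1, the cytochrome c1 of complex III that the symbol rule misses, by 1.07.

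Genes that build the machinery were counted the same way. Of 34 assembly and maturation factors outside the Nduf names 10 rose and 2 fell from E12.5 to E18.5 (median 0.06), beside 24% and 29.2% of all genes tested. Leaving out 1 array at a time moved the 10 to between 5 and 10. Of 20 proteins of the mitochondrial ribosome 4 rose and 3 fell (median 0.07), with 1 to 4 higher when 1 array was left out. Centring on the brightest decile of other genes gave 17 of the 34 and 11 of the 20 higher. From E7.5 to E10.5, 10 of the 34 rose and 17 fell, and 1 of the 20 rose and 13 fell, beside 34.3% and 23.8% of all genes tested. The counts lower were 17 and 13 under quantile normalization, 21 and 18 with scaling by the 75th percentile, and 14 and 12 with that centring. Among 19 regulators of mitochondrial biogenesis, 3 rose from E12.5 to E18.5 and 7 fell (median -0.17). With scaling by the 75th percentile 5 fell, and with centring on the brightest decile 4 did (median 0.03). Those that rose were Ppargc1b (2.08 ± 0.24), Esrra (1.17 ± 0.15) and Ppargc1a (0.86 ± 0.34), a pair of coactivators and a nuclear receptor that they bind. Gabpa itself did not pass (0.01 ± 0.17, adjusted p = 0.96). Those that fell included Gabpb1 (-1.26 ± 0.18), a partner of GABPA, Nrf1 (-0.72 ± 0.14) and Tfam (-0.56 ± 0.13), the packaging factor of mitochondrial DNA. The ETS and NRF1 letters above are those that GABPA with Gabpb1 and Nrf1 are known to bind, and no binding was measured here. With quantile normalization or scaling by the 75th percentile the late rise of the roles, the citric acid cycle genes and the carriers kept its direction, with 10 of 13 and 11 of 13 carriers higher and 18 of 19 citric acid cycle genes higher under each.

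Different probe sets of a member mostly told the same. Of 42 members with more than 1 probe set above the array median on all arrays, 4 had probe sets of opposite sign from E12.5 to E18.5, namely Atp5j2, Ndufaf8, Ndufs4 and Sdhc. The median range between probe sets of a gene was 0.13.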

How the data were processed

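Wild-type mouse embryos of 8 stages were measured on 20 Affymetrix arrays. The authors deposited an intensity for each probe set, linear and not logged, made with MAS5 per the submitters' processing notes. The version is not given in the sources used here. The trimmed mean of every array, without the lowest and highest 2%, was 500.0, so arrays had been scaled to each other, and no other normalization was applied. MAS5 subtracts background, so dim signals are noisy, and values of different probe sets are not comparable as levels.

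Of 45101 probe sets, 34945 with a single symbol in the platform annotation were used, without 64 controls. RefSeq identifiers changed 0 symbols. A gene was represented by its probe set with the highest mean. Of 18193 genes, 14044 above the array median on at least 2 arrays were tested. Values were log2(signal + 25.9), where 25.9 is the median of the arrays' 25th percentiles. All 20 arrays entered 1 model with a mean per stage (limma 3.58.1, R 4.3.3, lmFit and eBayes with trend, 12 residual degrees of freedom), two-sided, adjusted by Benjamini-Hochberg over the genes tested. Simulated arrays with planted changes were used to check the model. Isoform pairs were fitted as log2 differences in the same table. Any member could be named. Values were given in full for the isoform pairs, a reference subunit of each complex (Ndufs1, Sdha, Uqcrfs1, Cox5a, Atp5b) and the members with the largest changes that passed. Other genes came from lists written by function, up to 4 with the largest passing changes. Full values of Ndufb10, Ndufa6 and Atp5md, and the names Cycs, Gabpa, Nrf1, Tfam, Pdk3, Myl7 and Nppa, were chosen after their values were seen. Members and lists were chosen with earlier results of these data known. Alternatives are given in the closing section. Protein sequences were not used here.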

Additional observations from a re-analysis of the deposited data

How the results depend on the processing

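The count of members that rose from E12.5 to E18.5 stayed between 71 and 78 over quantile normalization, scaling by the 75th percentile, a constant 4 times smaller or larger, filtering at the 75th percentile or not at all, averaging all probe sets, fits of 2 stages or of 1 array set, the replicate block, and centring each array on the brightest decile of other genes. It was 11 where a 2-fold change was also required. The counts over other stages moved more. Under quantile normalization the members higher were 14 in E10.5 against E9.5, 10 in E14.5 against E12.5, 14 in E16.5 against E14.5 and 44 in E10.5 against E7.5, and 1 member each was lower in E14.5 against E12.5 and E18.5 against E16.5. With scaling by the 75th percentile they were 4 higher in E8.5 against E7.5, 2 higher in E10.5 against E9.5, 9 higher and 29 lower in E10.5 against E7.5, and 1 lower in E18.5 against E12.5. With the filter at the 75th percentile 1 was lower in E9.5 against E8.5, in E14.5 against E12.5 and in E18.5 against E16.5. With the mean of all probe sets 5 were higher in E12.5 against E10.5, 1 lower in E18.5 against E16.5 and 13 lower in E10.5 against E7.5. With the smaller pseudocount 1 was higher in E14.5 against E12.5. With the arrays of 2 stages alone, 4 were higher and 10 lower in E8.5 against E7.5, 1 lower in E9.5 against E8.5, 8 higher and 1 lower in E14.5 against E12.5, 5 higher in E16.5 against E14.5 and 1 lower in E18.5 against E16.5. With 1 array set in the fit, chosen after the data were seen, 1 was lower in E9.5 against E8.5, 7 higher and 1 lower in E14.5 against E12.5, 16 higher in E16.5 against E14.5 and 2 lower in E18.5 against E16.5. With centring on bright genes, also chosen after the data were seen, 23 were higher in E10.5 against E9.5, 8 higher and 40 lower in E12.5 against E10.5, 14 higher in E16.5 against E14.5, 42 higher and 4 lower in E10.5 against E7.5, and 1 lower in E18.5 against E12.5. At 2-fold or more, 0 were higher and 0 lower in E8.5 against E7.5, 0 and 1 in E9.5 against E8.5, 0 and 0 in E10.5 against E9.5, 7 lower in E12.5 against E10.5, 4 higher in E16.5 against E14.5, 3 higher in E18.5 against E16.5, 2 and 2 in E10.5 against E7.5, and 0 lower in E18.5 against E12.5. The causes were not tested.

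Leaving out each array in turn gave the following ranges of members higher and lower: 5 to 7 and 10 to 26 in E8.5 against E7.5, 5 to 8 and 1 to 3 in E9.5 against E8.5, 2 to 8 and 2 to 3 in E10.5 against E9.5, 2 to 3 and 67 to 72 in E12.5 against E10.5, 1 to 3 and 0 to 1 in E14.5 against E12.5, 4 to 10 and 0 to 1 in E16.5 against E14.5, 29 to 53 and 0 to 1 in E18.5 against E16.5, 18 to 25 and 6 to 11 in E10.5 against E7.5, and 68 to 73 and 1 to 2 in E18.5 against E12.5. A lone array left in a stage was assumed to vary like the others.

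Of the isoform pairs, Cox7a1 minus Cox7a2 in E10.5 against E7.5 was -0.61 under quantile normalization (adjusted p = 0.0011) and -0.31 to -0.21 without single arrays. Atp5g2 minus Atp5g3 in the same comparison was 0.19 under quantile normalization (adjusted p = 0.0021), 0.20 with the replicate block (adjusted p = 0.041) and 0.15 to 0.26 without single arrays. In E18.5 against E12.5, Cox8c minus Cox8a was -0.40 with the 2 stages alone (adjusted p = 0.0091). Atp5g1 minus Atp5g3 was 0.45 under quantile normalization (adjusted p = 0.043) and 0.31 with the 2 stages alone (adjusted p = 0.002), and Atp5g2 minus Atp5g3 was -0.36 to -0.27 without single arrays. Of single members, Cox8a in E10.5 against E7.5 turned from 0.12 to -0.39 with the mean of all probe sets (adjusted p = 0.012).

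Same-numbered arrays of E7.5 and E10.5 deviated with correlations of 0.14, 0.07 and 0.03, and 2 of the 3 E10.5 arrays correlated best with their own number, so the numbers were not taken to pair samples. With the replicate block 73 members were higher and 2 lower in E18.5 against E12.5 and 23 higher and 10 lower in E10.5 against E7.5. With it 1 member was lower in E14.5 against E12.5 and 1 in E18.5 against E16.5. The number of arrays limits the precision. In simulated data for E18.5 against E12.5 the model found 20% of changes of 0.5 on the log2 scale, 56% of changes of 1 and 92% of changes of 2. Only 50 of 14044 genes were changed at each size there, drawn from all signal levels. In the real comparison 24% of genes tested were higher and 29.2% lower, which loosens the Benjamini-Hochberg cutoff, and most members are bright. The simulated rates are therefore not rates for the members.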
